A study of Mus musculus with 8 samples.

Results

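Non-muscle and smooth muscle myosin II genes were examined in spleen cells of leukemic mice that expressed either the full-length fusion protein CBFb-SMMHC or its truncated form, CBFb-SMMHCd179-221. The members were the heavy chain genes Myh9, Myh10, Myh11 and Myh14, the light chain genes Myl6, Myl9, Myl12a and Myl12b, and the kinase gene Mylk. They were taken by gene symbol, as all probe sets annotated to 1 of these 9 genes, of 18193 genes on the array, and to no other gene. This gave 19 of the 45037 probe sets on the array. A further 2 probe sets name Myl6 together with other loci and were left out.

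Myosin II is the motor that slides actin filaments in muscle and at the cortex of non-muscle cells. Each heavy chain has a head that binds actin, the tails of a pair of heavy chains wind into a coiled coil that assembles into filaments, and each head carries an essential and a regulatory light chain. Phosphorylation of the regulatory light chain by myosin light chain kinase and other kinases switches the motor on. In blood cells the non-muscle forms serve cell division, migration and platelet formation. In the leukemia fusion, the tail encoded by Myh11, the smooth muscle heavy chain gene, is joined to CBFb, the partner of the DNA-binding factor RUNX1. RUNX1 is also known for silencing MYH10 as megakaryocytes mature.

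The full-length group had 4 arrays from 2 leukemic mice with CBFb-SMMHC, taken 2 months after the mice received ENU, a chemical mutagen. The truncated group had 4 arrays from 2 leukemic chimeric mice with CBFb-SMMHCd179-221, sampled 3 weeks after birth. The sample labels call the full-length mice chimeras and the series text calls them knock-in, so the share of their cells with the fusion is not known here, and neither the strain nor the promoter that drove the fusion is given in the sources used here. Genotype, mutagen and age changed together and cannot be told apart, and no spleen without a fusion was analysed here. In each genotype animal 1 had 1 array and animal 2 had 3 arrays, numbered as in the labels. Values are log2 expression from RMA, and a difference is truncated minus full-length.

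The arrays did not group by animal. Over the 23324 probe sets tested, arrays 2 and 3 of animal 2 differed by a root mean square of 0.15 log2 units in each genotype. Array 1 of animal 2 lay at 0.37 from the array of animal 1 in the full-length group and at 0.38 in the truncated group, whereas it lay at 0.85 and 0.86 from arrays 2 and 3 of its own animal in the full-length group and at 0.58 from both in the truncated group. The assignment of arrays to animals was taken from the labels. Were the animal numbers wrong, the means, SDs, intervals and p-values over animals below would mix animals.

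The markers of blood cells also set the full-length arrays numbered 1 apart. The erythroid markers had a list median of 11.03 and 10.96 on the full-length arrays numbered 1, and lay between 7.49 and 9.05 on the other 6 arrays. Primary granule markers had list medians of 5.12 and 4.77 on these 2 arrays, 10.39 and 10.38 on the other full-length arrays and 11.29 to 11.70 on the truncated arrays. Secondary granule markers had 6.59 and 6.58, then 8.94 on both other full-length arrays, and 11.03 to 11.56 on the truncated arrays. Monocyte and macrophage markers had 6.30 and 6.21, then 7.29 and 7.37, and 8.37 to 8.80. The median of the 7 markers of leukocytes and blood progenitors overlapped, at 7.46 to 9.15 in full-length and 7.80 to 8.71 in truncated arrays, but 2 of them did not. Ptprc, the pan-leukocyte antigen CD45, lay at 8.35 to 9.58 and 10.30 to 10.77, and Itgam, an integrin of myeloid cells, at 6.19 to 6.65 and 7.80 to 8.71. Among the rest, all with overlapping arrays, Cd34 and Spi1 were higher in truncated animals by the animal means, by 2.72 and 0.90. Within the arrays numbered 1, 2 and 3 the differences were 4.03, 0.18 and 0.03 for Cd34 and 1.31, -0.12 and -0.15 for Spi1. Kit, Runx1 and Cbfb were lower by the animal means, with differences of -0.57, -0.49 and -0.47. Kit kept this direction within the arrays numbered 1, 2 and 3, at -0.47, -0.45 and -0.39. Runx1 and Cbfb turned direction between array numbers, at 0.36, -2.0 and -1.96 for Runx1 and -0.74, 0.14 and 0.04 for Cbfb. Values are therefore given per array. Differences of tested myosin and pathway genes that move by over 1.5 times without the full-length arrays numbered 1 are given without them too.

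Sequences are shown for the pair of genes with the widest range over the arrays, Myh10 and Mylk. They are the 250 bases upstream of a transcript start that RefSeq lists in build GRCm38.p6, on the plus strand at chr11:68691665-68691914 for Myh10 and at chr16:34784700-34784949 for Mylk. Matches to the core site of RUNX factors, searched as TGTGGT and TGCGGT on both strands, are in capitals. The Mylk window lies inside the annotated span of the gene, upstream of an internal start, and not upstream of the whole gene.
Myh10: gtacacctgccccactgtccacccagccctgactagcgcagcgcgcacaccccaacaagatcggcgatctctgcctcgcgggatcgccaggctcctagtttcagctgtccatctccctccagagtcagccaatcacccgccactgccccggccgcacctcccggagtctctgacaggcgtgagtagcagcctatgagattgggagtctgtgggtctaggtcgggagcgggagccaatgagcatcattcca
Mylk: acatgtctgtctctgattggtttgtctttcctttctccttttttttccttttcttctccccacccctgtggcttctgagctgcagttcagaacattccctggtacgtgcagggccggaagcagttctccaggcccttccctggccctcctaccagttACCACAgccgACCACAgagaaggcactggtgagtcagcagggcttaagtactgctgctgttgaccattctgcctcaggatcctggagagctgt

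Written on the plus strand, a match to TGTGGT on the minus strand reads ACCACA. The Mylk window held 2 matches, both to TGTGGT read on the minus strand, which began 93 and 83 bases upstream of that internal start. The Myh10 window held none. Of the 9 windows listed for 8 of the members, that of Mylk was the only one with a match. Among all 32817 windows of this length, 18.6% held at least 1 match and 2.01% held 2 or more. A match describes the letters and does not show that a factor binds there.

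Myh10, the heavy chain of non-muscle myosin IIB, had the most negative difference of any tested member. By probe set 1452740_at it lay at 9.25 for full-length animal 1 and at 8.74, 7.58 and 7.55 on arrays 1, 2 and 3 of full-length animal 2. In the truncated group it lay at 7.31 on the array of animal 1 and at 6.92, 4.01 and 4.69 on arrays 1, 2 and 3 of animal 2. Every truncated array was below every full-length array, and arrays 2 and 3 were the lowest within each genotype. The full-length animals had 8.60 ± 0.91 and the truncated animals 6.26 ± 1.49 (mean ± SD, n = 2 animals each).

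The difference for Myh10 was -2.34 with an SE of 0.79 and a 95% confidence interval of -4.35 to -0.33, or 5.07-fold. It did not pass over all probe sets (limma, adjusted p = 0.311). A lower difference was found for 49 of the 23324 probe sets tested. Within the arrays numbered 1 the difference was -1.88, within those numbered 2 it was -3.56 and within those numbered 3 it was -2.87. With the array number as a replicate block over 8 arrays it was -2.55 with an SE of 0.32 and passed (limma, adjusted p = 0.00593). That fit treats the arrays of 1 animal as independent, and it called 10.0% of all probe sets. Without the 2 full-length arrays numbered 1 the difference was -1.30 (limma, adjusted p = 0.602). Without arrays 2 and 3 of truncated animal 2, an alternative added after seeing the data, it was -1.48 (limma, adjusted p = 0.196).

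Markers of other cells moved with parts of this pattern. The erythroid list median was high on the full-length arrays where Myh10 was highest, and the summed erythroid signal spanned 11.5 to 13.9 in full-length and 11.4 to 12.6 in truncated arrays (log2 of the sum over the 8 of 10 markers with a probe set of their own, of which Hba-a1 was dim throughout). Among truncated arrays the erythroid list median was also higher at number 1, at 9.05 and 8.94 against 7.83 and 7.90. Full-length arrays 2 and 3, at 7.49 and 7.67, lay below the truncated arrays numbered 1, though Myh10 was higher on them. The part of erythroid cells in the Myh10 values was not tested. In bulk spleen RNA, fewer cells of a type and less RNA per cell cannot be told apart. The other Myh10 probe set, 1441057_at, was below 4.75, the median over all probe sets and arrays, on every array. It spanned 3.23 to 3.67 in full-length and 2.87 to 3.27 in truncated arrays, and was not tested.

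**Figure D1:**
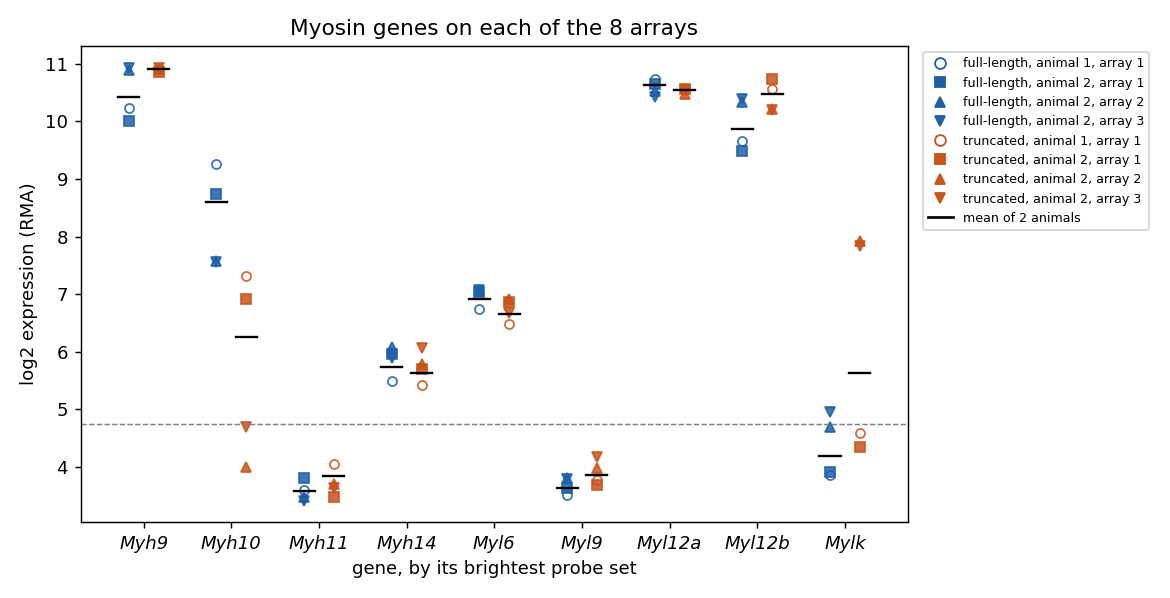
Log2 expression (RMA) of each of the 9 myosin genes by its brightest probe set on the 8 arrays, with full-length arrays in blue, truncated arrays in orange, a marker shape for each array, and a bar at the mean of the 2 animals. The dashed line is the median over all probe sets, 4.75, and heights of different genes are not comparable because probes differ. Myh10 is the gene whose genotypes do not overlap, and Mylk is high on 2 truncated arrays.

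Myh9 encodes the heavy chain of non-muscle myosin IIA, the main form in leukocytes and platelets. Its brightest probe set, 1420171_s_at, lay at 10.23 for full-length animal 1 and at 10.01, 10.89 and 10.93 on arrays 1, 2 and 3 of full-length animal 2. The truncated values were 10.91 for animal 1 and 10.85, 10.90 and 10.92 for arrays 1, 2 and 3 of animal 2. The arrays numbered 1 of the full-length group were thus low, and the other 6 arrays lay within a narrow band. The difference was 0.48 with a confidence interval of -0.15 to 1.11 and did not pass (limma, adjusted p = 0.493). It was 0.76 within the arrays numbered 1 and 0.01 and -0.01 within those numbered 2 and 3. Without the 2 full-length arrays numbered 1 it was -0.01.

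Another 3 Myh9 probe sets also had both full-length arrays numbered 1 lowest, though the other 6 arrays spread more widely, from 8.48 to 9.13 for 1417472_at and from 7.25 to 7.74 for 1420170_at. For these 2 the truncated arrays numbered 1 were highest, and the differences were -0.12 and -0.26, and -0.27 and -0.23, within the arrays numbered 2 and 3. The overall differences were 0.56 for 1417472_at, 0.55 for 1420170_at and 0.52 for 1420172_at, and none passed (limma, adjusted p = 0.410, 0.451 and 0.571). Without the 2 full-length arrays numbered 1 these became 0.16, 0.06 and 0.02. The last Myh9 probe set, 1440708_at, differed by -0.11 (limma, adjusted p = 0.931). It lay between 5.18 and 6.03 in full-length and between 5.28 and 5.74 in truncated arrays.

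Myl12b, a regulatory light chain of non-muscle myosin, shared the low values of Myh9 on the full-length arrays numbered 1. Probe set 1428608_at lay at 9.65 for full-length animal 1 and at 9.49, 10.33 and 10.39 on arrays 1, 2 and 3 of full-length animal 2. In truncated mice it lay at 10.56 for animal 1 and at 10.73, 10.22 and 10.19 on the arrays of animal 2. The truncated arrays numbered 1 were the highest and the full-length arrays numbered 1 the lowest, while arrays 2 and 3 of both genotypes were close together. The difference was 0.61 with a confidence interval of -0.05 to 1.26 (limma, adjusted p = 0.408), and it was 1.07 within the arrays numbered 1 but -0.11 and -0.20 within those numbered 2 and 3. Without the 2 full-length arrays numbered 1 it was 0.11. A second probe set, 1428609_at, stayed between 3.68 and 4.30 on all arrays and was not tested.

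In all, 5 of the 11 tested member probe sets, 4 of Myh9 and 1 of Myl12b, had both full-length arrays numbered 1 below the other 6 arrays, as did 14.3% of all tested probe sets. The pattern was taken from the values of the members, so the comparison is no test. The full-length arrays numbered 1 are those with the high erythroid and the low granule and monocyte markers. The summed primary granule signal spanned 7.31 to 12.6 in full-length and 13.4 to 14.0 in truncated arrays, that of secondary granules 9.08 to 12.5 and 13.7 to 14.1, and that of monocytes and macrophages 9.52 to 10.3 and 11.4 to 12.0. All 5 markers of each of these 3 lists were tested. The part of these cells in the Myh9 and Myl12b values was not tested. With 1 array per animal, which takes the arrays numbered 1 alone, 3 of these Myh9 probe sets and Myl12b passed (limma, adjusted p = 0.0264, 0.00536 and 0.00545 for 1420171_s_at, 1417472_at and 1420170_at and 0.00372 for Myl12b). That setting called 22.0% of all tested probe sets, 10.8% higher and 11.1% lower.

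**Figure D2:**
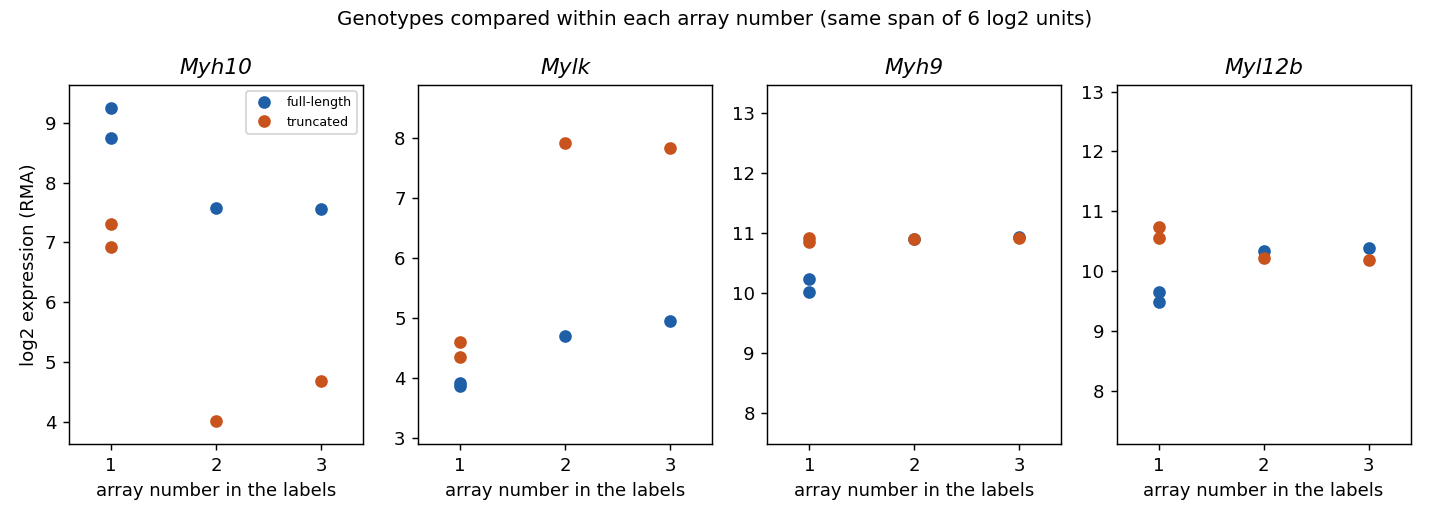
Log2 expression (RMA) of Myh10, Mylk, Myh9 and Myl12b by their brightest probe sets, with each point an array placed at its number in the labels, full-length in blue and truncated in orange, and each panel spanning 6 log2 units. Myh10 is lower in truncated arrays at every number, Mylk differs most at numbers 2 and 3, and Myh9 and Myl12b differ at number 1.

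Myl12a encodes a regulatory light chain that is nearly the same protein as that of Myl12b. Its bright probe set, 1420820_at, lay between 10.42 and 10.74 in full-length and between 10.48 and 10.56 in truncated arrays, so the genotypes overlapped. The difference was -0.09 with a confidence interval of -0.67 to 0.49 (limma, adjusted p = 0.919). The dimmer probe set 1450013_at differed by 0.19 (limma, adjusted p = 0.831). Because the genes are close copies, the share of each probe set's signal that came from the other gene is not known here.

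Myl6 encodes the essential light chain of non-muscle and smooth muscle myosin. By 1435041_at, its only probe set with 1 gene, it lay at 6.75 to 7.08 in full-length and 6.48 to 6.91 in truncated arrays. The difference was -0.26 with a confidence interval of -0.92 to 0.40 (limma, adjusted p = 0.762), and without the full-length arrays numbered 1 it was -0.44. Myh14, the heavy chain of non-muscle myosin IIC, lay at 5.50 to 6.09 and at 5.42 to 6.07. It differed by -0.10, with a confidence interval of -0.85 to 0.64 (limma, adjusted p = 0.931), and by -0.35 without the full-length arrays numbered 1. For both genes the arrays of the genotypes overlapped, and the intervals leave room for changes in either direction.

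The smooth muscle members, Myh11 and Myl9, were below the overall median. Myh11, which gives the fusion its tail, lay at 3.60 for full-length animal 1 and at 3.82, 3.48 and 3.42 on arrays 1, 2 and 3 of full-length animal 2 by probe set 1418122_at. The truncated values were 4.06 for animal 1 and 3.49, 3.71 and 3.63 for animal 2. By 1448962_at it spanned 2.76 to 3.56 in full-length and 3.15 to 3.44 in truncated arrays. All 8 arrays were below the overall median by both probe sets, neither was tested, and the genotypes overlapped. Whether these probe sets match the tail as built into either fusion is not given in the sources used here, so they do not check the genotype labels. Myl9, the regulatory light chain of smooth muscle and platelets, was also below the overall median on every array, at 3.51 to 3.82 in full-length and 3.69 to 4.18 in truncated arrays. The 10 smooth muscle markers had list medians of 4.32 to 4.92 and of 4.76 to 4.84, and 4 of them, among them Cnn1 and Myocd, were below the overall median on all arrays. Their summed signal spanned 7.92 to 8.19 in full-length and 8.16 to 8.26 in truncated arrays. RMA values hold no true zero, so a dim probe set does not show that a gene was silent.

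Mylk, the kinase of the regulatory light chain, was high on 2 arrays of 1 animal. By 1425505_at it lay at 3.86 for full-length animal 1 and at 3.92, 4.69 and 4.95 on the arrays of full-length animal 2. In truncated mice it lay at 4.59 for animal 1 and at 4.35, 7.92 and 7.83 on arrays 1, 2 and 3 of animal 2. A second probe set, 1425506_at, gave 3.24 for full-length animal 1, 3.32, 4.23 and 4.27 for full-length animal 2, 3.67 for truncated animal 1, and 3.64, 7.27 and 7.67 for truncated animal 2. Arrays 2 and 3 of truncated animal 2 stood at least 2.87 and 3.00 log2 units above every other array by these probe sets. Only 63 of the 45037 probe sets had both of these arrays at least 2 units above the other 6, or 0.14%, and 2 of them were those of Mylk. The pattern was taken from the Mylk values, so their place among the 63 was fixed in advance and tests nothing. The third, 1425504_at, stayed between 3.70 and 4.18 on all arrays, with these same 2 arrays highest.

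The Mylk probe sets did not pass the filter, since at most 1 of the 4 animals was above the overall median. With no filter, 1425505_at and 1425506_at did not pass the test (limma, adjusted p = 0.638 and 0.742). By 1425505_at the full-length animals had 4.19 ± 0.46 and the truncated animals 5.64 ± 1.49 (mean ± SD, n = 2 animals each), and the truncated SD was about as large as the difference of 1.45. Within the arrays numbered 1 the difference was 0.58, against 3.22 and 2.87 within those numbered 2 and 3. Smooth muscle markers were not high on these arrays, with list medians of 4.76 and 4.83. The B cell list median was, at 6.12 and 6.16 against 4.42 to 5.16 on the other 6 arrays, over 4 of 5 markers with a probe set of their own. The summed B cell signal spanned 6.72 to 7.01 in full-length and 7.35 to 8.28 in truncated arrays, with Pax5 below the overall median throughout. The platelet and megakaryocyte list median was 5.93 and 5.98 there (9 of 11 markers measured). That was above the full-length arrays, at 5.32 to 5.68, and below the truncated arrays numbered 1, at 6.37 and 6.24. The summed signal of this list spanned 10.3 to 10.5 in full-length and 10.1 to 10.3 in truncated arrays. One of its genes, Ppbp, singled out after its values were seen, lay at 6.17 and 6.05 against 3.77 to 4.66. The part of either cell type in the Mylk values was not tested. Ppp1r14a, an inhibitor of myosin phosphatase, was also higher there, at 5.83 and 5.57 against 3.48 to 4.19, and was noticed after the values were seen.

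Over all members, 11 of the 19 probe sets, from 6 of the 9 genes, passed the filter on low values. Of these, 6 were higher and 5 lower in truncated animals, with a median difference of 0.19 against -0.06 over all tested probe sets. Since 5 of the 11 are probe sets of Myh9, that gene weighs most in the median. By limma on the animal means 0 of the 11 passed and 1, that of Myh10, had an unadjusted p under 0.05. Over all tested probe sets 0.0% passed and 13.3% had such a p. All 4 arrays of one genotype lay beyond those of the other for 1 of the 11, again Myh10, and for 18.4% of all tested probe sets. With the replicate block 1 of the 11 passed, against 10.0% of all tested probe sets. Each count rests on 1 probe set, and 5 of the 11 are of 1 gene, so neither share can be placed above or below the background.

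**Figure D3:**
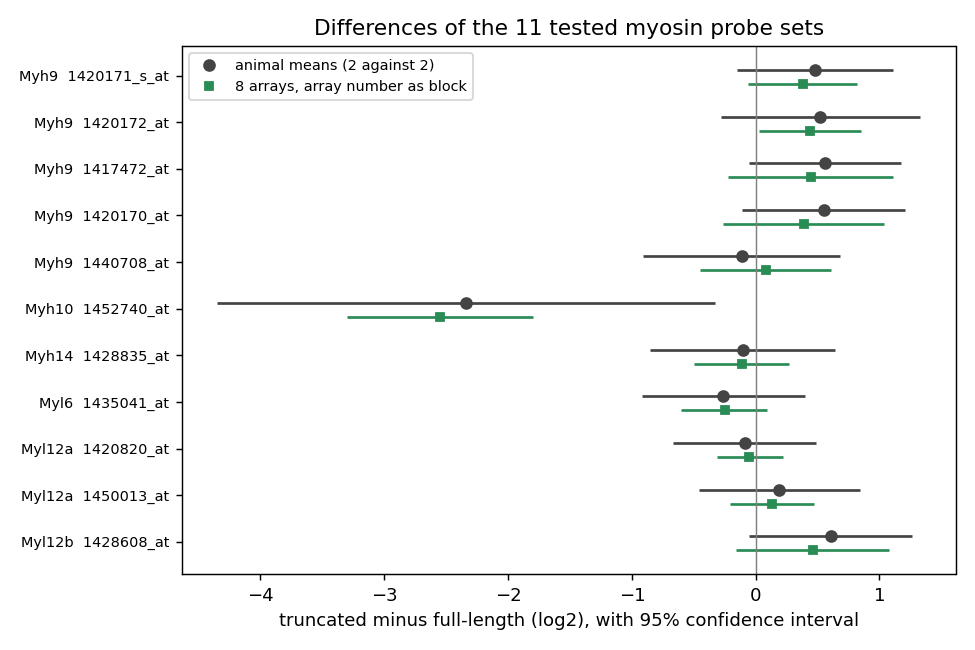
Difference between truncated and full-length animals (log2) for the 11 tested myosin probe sets, with 95% confidence intervals from limma on animal means (grey circles) and on 8 arrays with the array number as a block (green squares). On animal means the interval of Myh10, -4.35 to -0.33, is the only one that leaves out 0, and with the block those of Myh10 and of Myh9 1420172_at do.

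Probe sets with patterns most like those of the members were looked for by Pearson r over the 8 arrays, which share animals and normalization. For Myh10 the highest were Ash2l (r = 0.993), a subunit of histone methyltransferase complexes, Hk1 (0.991), a hexokinase, and Dancr (0.990), a long non-coding RNA. For Myl12b they were Serpinb6a (0.993), Itpripl2 (0.992) and Dab2 (0.991), an endocytic adaptor. For Mylk, added after its values were seen, they were Mdga1 (0.997), Hk3 (0.986), a hexokinase of myeloid cells, and Snx5 (0.982). An r above 0.95 was found for 111 of the 19941 probe sets compared with Myh10 (0.557%), for 101 with Myl12b (0.506%) and for 42 with Mylk (0.211%).

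Among 75 genes that regulate or work with non-muscle myosin, 69 had a probe set of their own and 65 were tested by the brightest. Of these, 37 had a higher and 28 a lower value in truncated animals, with a median difference of 0.10 against -0.06 over all probe sets. By limma on the animal means 0 passed, and 8 higher and 4 lower genes had an unadjusted p under 0.05, or 18.5% against 13.3% of all tested probe sets. The arrays did not overlap for 12 higher and 5 lower genes, or 26.2% against 18.4% of all tested probe sets (8.51% higher and 9.85% lower). With the replicate block, 7 of the 65 passed with higher and 3 of the 65 with lower values, against 5.42% and 4.59% of all tested probe sets in these directions. The share with lower values was about that of all tested probe sets. The background also holds dimmer probe sets of the same genes and probe sets with no gene, so these shares are not like for like.

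The most positive difference was that of Actn1, the actin cross-linker alpha-actinin. It lay between 5.05 and 5.96 in full-length and between 7.27 and 7.69 in truncated arrays. Its difference of 2.04 had an adjusted p of 0.103 in limma and of 0.00205 with the replicate block. Zyx, a focal adhesion protein, differed by 1.94, but lay at 6.54 and 6.37 on the full-length arrays numbered 1 and at 9.51 and 9.50 on the other full-length arrays, against 9.32 to 9.67 in truncated arrays. Without the full-length arrays numbered 1 it differed by -0.06. Stk10, a kinase of ezrin-type proteins in lymphocytes, differed by 1.83, with the same full-length arrays low at 6.59 and 6.71, and by 0.56 without them. Septin6, a filament protein of the cell cortex, lay between 5.16 and 5.68 in full-length and between 7.04 and 7.21 in truncated arrays, a difference of 1.71 (limma, adjusted p = 0.111, and 0.00166 with the replicate block). Tpm4, a tropomyosin of non-muscle cells, and Rhob, a small GTPase of the actin cytoskeleton, each differed by 1.43. Arrays overlapped for Rhob and not for Tpm4, and without the full-length arrays numbered 1 Rhob differed by 0.17 and Tpm4 by 1.87. The list medians of granule and monocyte markers were higher in every truncated array than in any full-length one. These genes were higher by the animal means, but for Zyx and Rhob the arrays of the genotypes overlapped. The part of granule cells and monocytes in these values was not tested.

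The lowest was Ssh1, a phosphatase that activates the actin-severing protein cofilin. It lay at 8.65 for full-length animal 1 and at 8.12, 7.39 and 7.42 on the arrays of full-length animal 2, against 6.76 for truncated animal 1 and 6.82, 5.26 and 5.11 for truncated animal 2. No truncated array reached a full-length one, and the difference was -1.90 (limma, adjusted p = 0.230, and 0.00319 with the replicate block). It was -1.15 without the full-length arrays numbered 1. Mylk3, the light chain kinase of heart muscle, differed by -1.21 with overlapping arrays, with 9.02 and 9.58 on the full-length arrays numbered 1 and 6.32 and 6.50 on the other full-length arrays. Without the former the direction turned, to 0.62, and within the arrays numbered 2 and 3 it was 0.76 and 0.57. Cdc42bpg, a kinase that acts on myosin through its phosphatase, differed by -0.95 and Arhgef12 by -0.84. Dapk1, a calcium-regulated kinase that can phosphorylate myosin light chain, differed by -0.70, and by -0.18 and -0.16 within the arrays numbered 2 and 3. None of these passed on the animal means (limma, lowest adjusted p = 0.230), and Cdc42bpg and Arhgef12 passed with the replicate block (adjusted p = 0.00979 and 0.0116).

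**Figure D4:**
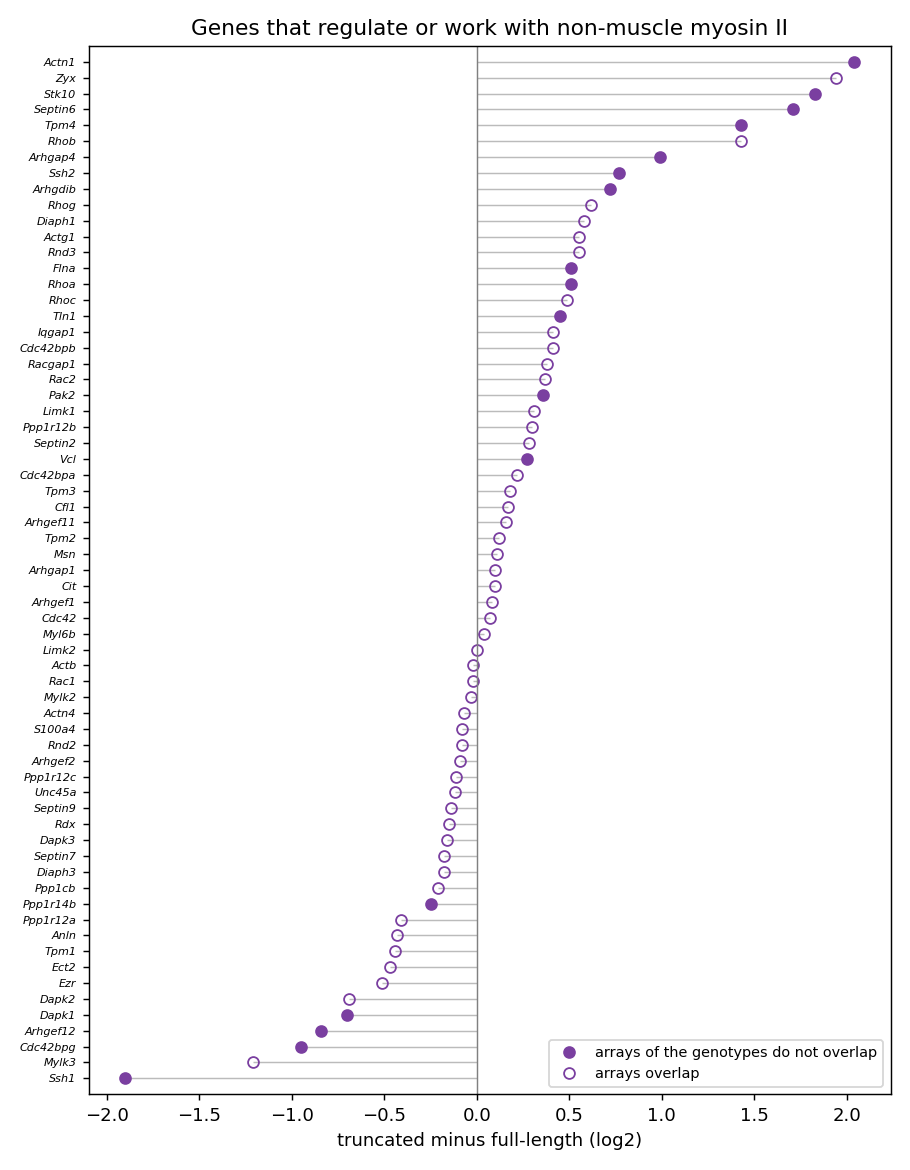
Difference between truncated and full-length animals (log2) for the 65 tested genes that regulate or work with non-muscle myosin II, filled where the 4 arrays of one genotype all lie above or below the 4 of the other. Values run from -1.90 for Ssh1 to 2.04 for Actn1, and 17 genes are filled.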

How the data were processed

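Total RNA of leukemic spleen cells was hybridised to Affymetrix mouse arrays, per the labels. The deposited table holds log2 values of 45101 probe sets, 64 of them controls. The authors used RMA, per the submitters' processing notes, with no version given. The values' range gave the log base. RMA draws dim values together and understates their differences. Array medians lay between 4.71 and 4.77, and the number of arrays limits the precision.

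Arrays were averaged per animal. Probe sets with at least 2 of the 4 animals above 4.75, the overall median, were tested in R 4.3.3 with limma 3.58.1 (lmFit, then eBayes, 2 residual and 3.25 prior degrees of freedom), with Benjamini-Hochberg adjustment over all 23324 and a threshold of 0.05. Labels name separate animals but not how arrays of an animal were made. Deviations of arrays with the same number correlated between genotypes (r = 0.22, 0.21 and 0.19), so the number was used as a replicate block. Symbols came from the platform annotation: 34945 probe sets had 1, 932 several and 9160 none. RefSeq promoters were found for 8 of the 9 members. In simulated data with 200 of 23324 probe sets changed, 3.9% of changes of 1 log2 unit were recovered, 86.7% of 2 and 98.6% of 3. On average 17 of 161.4 calls there were false. The simulated noise was independent between animals and held no split between array numbers, unlike the data. These shares therefore do not show how many real changes of such size would pass here.

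All members and, of the pathway genes, the 5 with the largest difference per direction are named, with Rhob beside Tpm4, its equal at 2 decimals. Ppp1r14a was added after its values were seen. 1 further gene of the set is not reported here, and all member counts leave it out. Members and lists were chosen with earlier results of these data known.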

Additional observations from a re-analysis of the deposited data

Results flagged for a closer look

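Within the 38 sets of 4 arrays (19 probe sets in each genotype), 1 held an array far from the other 3. For 4 independent arrays chance gives about 1 in 20. Here 3 of each 4 arrays came from 1 animal, so that rate does not apply. Myl6 by 1435041_at was at 6.75 on the array of full-length animal 1, against 7.03 to 7.08 on the other full-length arrays.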

How the results depend on the processing

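On the animal means 0 probe sets passed in limma, with 3106 at an unadjusted p under 0.05. The number that passed was 412 with the animal as a random block, 2333 with the replicate block by array number, 610 with arrays centred on 3 reference genes (the others of 5 had no probe set of their own), 5121 with 1 array per animal and 532 without arrays 2 and 3 of truncated animal 2 (added after the data were seen). It was 0 to 1021 when 1 array or animal was left out, where a lone animal is assumed to vary like the other group. It reached 294 without array 2 of full-length animal 2, 461 without its array 3 and 1021 without that animal. Among the members 1 passed with the replicate block, 1 with reference genes and 5 with 1 array per animal. Of the pathway genes 5, 10, 4, 21 and 2 passed in these 5 settings, in the order given, and 0 to 5 when an array or animal was left out. The other alternatives called 0 of each (no filter, 1 probe set per gene, a block for the animal number, an intensity trend, median centring, a second quantile normalization and leaving out both full-length arrays numbered 1). The cause of these changes was not tested.

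Myh10 kept its direction in all 22 alternatives, at -3.40 to -1.29, with adjusted p of 0.000164 to 0.684 in limma. It passed in 3: the replicate block, reference genes (adjusted p = 0.0160) and 1 array per animal (0.000164). Without 1 array or animal it stayed between -3.40 and -1.29. Small differences of other members turned direction. Without both full-length arrays numbered 1, Myh9 was at -0.01 by 1420171_s_at and 0.35 by 1440708_at, and Myl12a at 0.07 by 1420820_at. With the replicate block by array number, Myh9 1440708_at was at 0.08. Leaving out 1 array or animal gave -0.48 to 0.25 for Myh9 1440708_at, -0.34 to 0.13 for Myh14, and -0.20 to 0.01 and -0.01 to 0.40 for Myl12a by 1420820_at and 1450013_at.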

Other observations

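Unconventional myosins, those other than myosin II, were looked at beside the members. Of 24 listed, 23 had a probe set of their own and 14 were tested, with 7 higher and 7 lower values in truncated animals and a median difference of 0.01. By limma on the animal means 0 passed, and 4 had an unadjusted p under 0.05, or 28.6% against 13.3% of all tested probe sets. These genes too were read by their brightest probe set, unlike the background. Myo1f, a myosin of neutrophils and other leukocytes, lay between 5.75 and 6.83 in full-length and between 8.31 and 8.63 in truncated arrays, a difference of 2.22 (limma, adjusted p = 0.103, and 0.00463 with the replicate block). Markers of neutrophils and macrophages were higher in every truncated array too, except Elane, a primary granule marker whose arrays overlapped. Ltf lay at 6.06 to 8.94 in full-length and 11.03 to 11.56 in truncated arrays, Mmp8 at 6.58 to 6.62 and 9.01 to 9.57, Itgam at 6.19 to 6.65 and 7.80 to 8.71, and Adgre1 at 5.28 to 6.30 and 7.48 to 8.10. The part of these cells in the Myo1f values was not tested. Myo7a differed by 1.78 and Myo18a by -0.85, and Myo1g, a myosin of blood cells, by 0.94 (0.46 without the full-length arrays numbered 1). For these 4 genes, 28.6% of the 14 against 18.4% of all tested probe sets, no array of one genotype reached the range of the other. They were picked after their values were seen. Of 16 listed muscle myosin genes 14 had a probe set of their own, 4 were tested, and their differences lay between -0.33 and 0.28.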
